A study of Homo sapiens with 18 samples.

Results

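A set of 7 receptor-pathway genes that are discussed together with the fusion transcription factor PAX3-FOXO1 were followed: FGFR4, ALK, IGF1R, IGF2, MET, CXCR4 and EPHA2. Their members are the regions of a Ser5 Pol II ChIP-seq count table that overlap the hg19 interval set for each gene. Regions were thus taken by position, while the genes were chosen with earlier results of these data known. The set holds 6 receptors and 1 ligand, IGF2. All 7 genes had at least 1 region and 0 had none, which gave 12 member regions of the 12123 in the table. FGFR4 and IGF2 had 3 regions each, IGF1R had 2, and ALK, MET, CXCR4 and EPHA2 had 1 each.

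The cells were Rh30, an alveolar rhabdomyosarcoma line, in which PAX3-FOXO1 carries an FKBP tag. Rhabdomyosarcoma is a tumour with features of early skeletal muscle. The tag lets the small molecule dTAG47 bring the fusion protein to the cell's degradation machinery. The 3 groups were cells given DMSO, the solvent, cells given 500 nM dTAG47 for 2 h and cells given 500 nM dTAG47 for 4 h. All 3 groups were made from the tagged cells, so untagged Rh30 cells are not among them. Each group had 2 libraries, named A and B here, and the chromatin was pulled down with an antibody to RNA polymerase II (Pol II) whose tail carries phosphate at serine 5 of the repeat. The labels do not say if A and B were grown separately. A p-value therefore sets a difference against a spread between libraries of a group that may be technical. That spread was estimated over the 3 groups together and moderated by that of all regions. It does not rest on a region's own 2 libraries a group alone. The 12 samples made with other antibodies were not analysed here, and the loss of the fusion protein cannot be read from these counts. Genes that mark muscle identity were not checked, since an annotation of hg19 was not used here.

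Ser5-phosphorylated Pol II collects near the starts of genes, where the polymerase begins and pauses, and also marks active enhancers. PAX3-FOXO1 joins the DNA-binding domains of PAX3 to the activating part of FOXO1 and acts mostly through enhancers. FGFR4, ALK, IGF1R and MET are receptor tyrosine kinases that have been described as targets of the fusion or of PAX3, and FGFR4 is high in fusion-positive tumours. IGF2 is the growth factor that activates IGF1R and is abundant in rhabdomyosarcoma. CXCR4 is the chemokine receptor for CXCL12 and guides cell migration, and EPHA2 is a receptor tyrosine kinase for ephrin-A ligands on neighbouring cells.

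Library totals ran from 962251 counts in 4 h library B to 1792013 in DMSO library A, and a member region held between 25 and 804 counts in a library. The 3 regions with the highest counts of the whole table, none of them a member, took 1.77% (A) and 2.61% (B) of a DMSO library, 2.61% and 3.21% of a 2 h library, and 2.61% and 4.17% of a 4 h library. Levels are given as CPM, the count over the library's total after TMM scaling. Each region spans 400 bases, so CPM can be set side by side between regions as signal per region.

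Of the 7 genes, 6 had promoter entries in RefSeq (GRCh38.p14), and IGF2 is named only. FGFR4, ALK, CXCR4, EPHA2, MET and IGF1R each have a region near the end of the interval where the gene starts. Sequences are shown for 4 of these genes: CXCR4 and EPHA2, whose regions passed the test below at 2 h, and FGFR4 and ALK. For each, the 250 bases before the outermost listed start are given 5′ to 3′ on the gene's strand. Capitals mark ATTA or TAAT (the core bound by homeodomains such as that of PAX3), CAGCTG (an E-box, the kind of site bound by muscle regulators) and GTCACG or CGTGAC (part of the site bound by a paired domain). The count table is in hg19, so these letters were not placed against the regions by coordinate.
FGFR4 (chr5:177086665-177086914, plus strand): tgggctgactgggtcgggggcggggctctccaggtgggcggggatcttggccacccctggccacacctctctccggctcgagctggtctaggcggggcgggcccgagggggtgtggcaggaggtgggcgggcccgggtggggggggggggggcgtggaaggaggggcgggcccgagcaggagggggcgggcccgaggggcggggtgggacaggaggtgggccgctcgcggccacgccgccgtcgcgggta
ALK (chr2:29921587-29921836, minus strand): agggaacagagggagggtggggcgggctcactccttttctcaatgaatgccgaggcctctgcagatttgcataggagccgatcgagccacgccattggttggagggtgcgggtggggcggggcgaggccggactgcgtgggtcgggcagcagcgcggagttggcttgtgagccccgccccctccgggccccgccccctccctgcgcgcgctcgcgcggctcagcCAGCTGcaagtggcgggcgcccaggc
CXCR4 (chr2:136118150-136118399, minus strand): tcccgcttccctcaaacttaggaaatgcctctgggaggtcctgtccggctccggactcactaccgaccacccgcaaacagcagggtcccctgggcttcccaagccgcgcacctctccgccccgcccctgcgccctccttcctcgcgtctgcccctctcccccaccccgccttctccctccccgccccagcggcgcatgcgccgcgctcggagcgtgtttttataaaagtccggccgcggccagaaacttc
EPHA2 (chr1:16156070-16156319, minus strand): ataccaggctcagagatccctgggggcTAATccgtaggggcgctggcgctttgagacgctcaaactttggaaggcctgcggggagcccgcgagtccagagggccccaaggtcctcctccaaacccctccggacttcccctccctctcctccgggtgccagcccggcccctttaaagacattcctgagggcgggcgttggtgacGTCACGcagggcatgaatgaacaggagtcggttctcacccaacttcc

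Searched on both strands, the FGFR4 and CXCR4 windows held 0 of these motifs, the ALK window held 1 CAGCTG, and the EPHA2 window held 1 TAAT and 1 GTCACG, with no overlap between them. At starts listed for the same genes but not shown, the further ALK window held 1 TAAT and 1 of the 2 further CXCR4 windows held 2 (ATTA and TAAT). The MET and IGF1R windows, also not shown, held 0 of the motifs. Of 35116 windows of this length in RefSeq, 47.4% held ATTA or TAAT, 14.0% CAGCTG and 7.93% GTCACG or CGTGAC. The 4 windows were richer in G and C than most, with 79.6% for FGFR4, 71.6% for ALK, 68.0% for CXCR4 and 63.2% for EPHA2 against a median of 58.0%. These matches describe letters in a window and say nothing of binding.

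The first question was how much Ser5 Pol II the genes carried before the fusion was degraded. In DMSO the highest signal stood at IGF2, where region 2 had 427 ± 53.8 CPM and region 1 had 407 ± 20.0 CPM (SD, n = 2 each). FGFR4 region 3 followed with 192 ± 6.39 CPM, then FGFR4 region 1 with 130 ± 16.1, EPHA2 with 117 ± 19.0 and FGFR4 region 2 with 113 ± 6.49 CPM. The next 4 lay close together, at 73.8 ± 8.60 CPM for IGF1R region 1, 71.0 ± 0.308 for MET, 60.8 ± 2.04 for IGF2 region 3 and 59.2 ± 4.33 for CXCR4. ALK had 45.7 ± 8.90 CPM and IGF1R region 2 had 28.8 ± 5.66 CPM. Libraries of neighbours in this order overlapped between both high IGF2 regions, among FGFR4 region 1, EPHA2 and FGFR4 region 2, between IGF1R region 1 and MET, and between IGF2 region 3 and CXCR4.

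Over all 6 libraries, the 2 high IGF2 regions ranked 59 and 67 of 12123 by mean CPM, 7.60-fold and 7.11-fold above the median region. FGFR4 regions 3 and 1 and EPHA2 ranked 563, 1250 and 1225, in the upper part of the table. The MET region, with a mean of 61.4 CPM, lay close to the median region at 0.956 times its level. ALK stood at 0.567 times and IGF1R region 2 at 0.440 times the median region, at ranks 10191 and 11106.

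**Figure D1:**
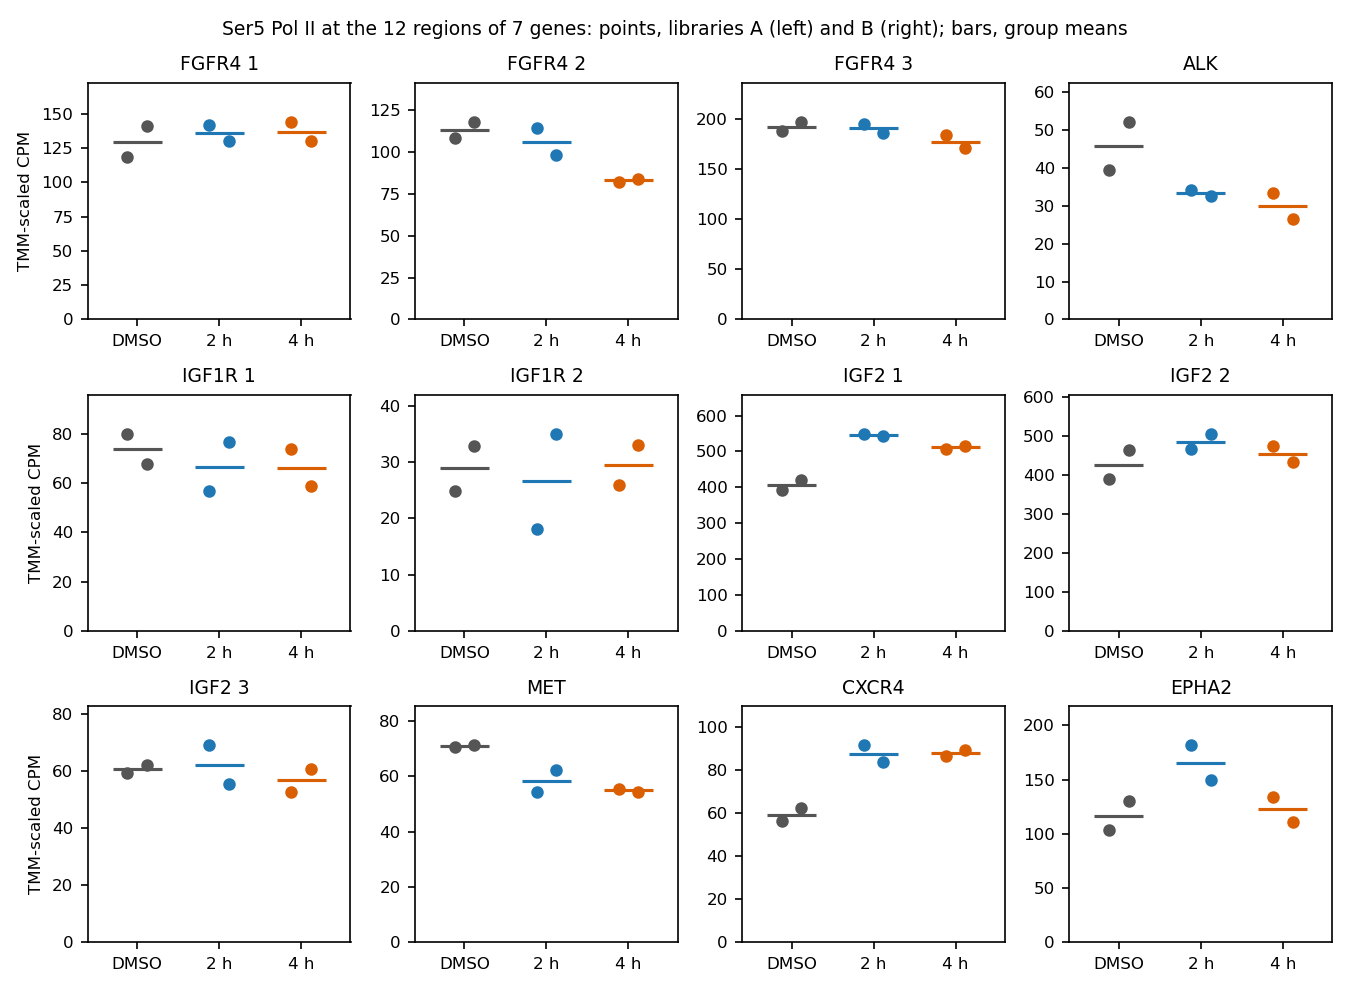
Ser5 Pol II signal in TMM-scaled CPM (vertical axes, each from 0 with its own scale) at the 12 regions in DMSO, 2 h and 4 h of dTAG47; points are libraries A and B and bars are group means. At CXCR4 the 4 treated libraries lie between 83.6 and 91.5 CPM, above DMSO libraries at 56.2 and 62.3 CPM.

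After 2 h of dTAG47, CXCR4 and EPHA2 were called higher in Ser5 Pol II, with edgeR adjusted p near the threshold (0.0310 and 0.0436). With total count scaling or with DESeq2, 0 members were called at 2 h. None of the other member regions passed the test in the fit without a replicate block. In edgeR's quasi-likelihood test over all 12123 regions, 2 of the 12 member regions rose and 0 fell (Benjamini-Hochberg adjusted p under 0.05), where 2.22% of all regions rose, 0.396% fell and 2.61% were called in either direction. Without adjustment, 3 members were higher and 0 lower at p under 0.05 in each of edgeR, DESeq2 and limma-voom. Of the 12123 regions, 1735 (14.3%) had such a p in either direction in edgeR, 568 in DESeq2 and 1754 in limma-voom. The median log2 fold change of the members was 0.02, against -0.01 for all regions, and the values ran from -0.43 at ALK to 0.57 at CXCR4. Both 2 h libraries lay above both DMSO libraries at 4 member regions and below them at 2, where 21.9% and 21.8% of all regions do so. After 4 h, CXCR4 was the only member region called, as a rise, and 0 fell. Of all regions 1.52% rose, 0.487% fell and 2% were called in either direction. A replicate block by letter called 3 members, but also 743 of all regions, against 243 without it. Without adjustment 2 members were higher and 3 lower in edgeR and limma-voom, and 2 higher and 0 lower in DESeq2. Of all regions, 1611 (13.3%) had such a p in edgeR, 1598 in limma-voom and 517 in DESeq2. The median log2 fold change was -0.05 for members and -0.01 for all regions, with a range from -0.56 at ALK to 0.57 at CXCR4. Both 4 h libraries lay above both DMSO libraries at 2 member regions and below them at 4, against 20.2% and 20.6% of all regions. The 2 h and 4 h comparisons share the DMSO libraries, so they are not independent. The share of all regions with all 4 treated libraries on 1 side of both DMSO libraries was not counted.

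**Figure D2:**
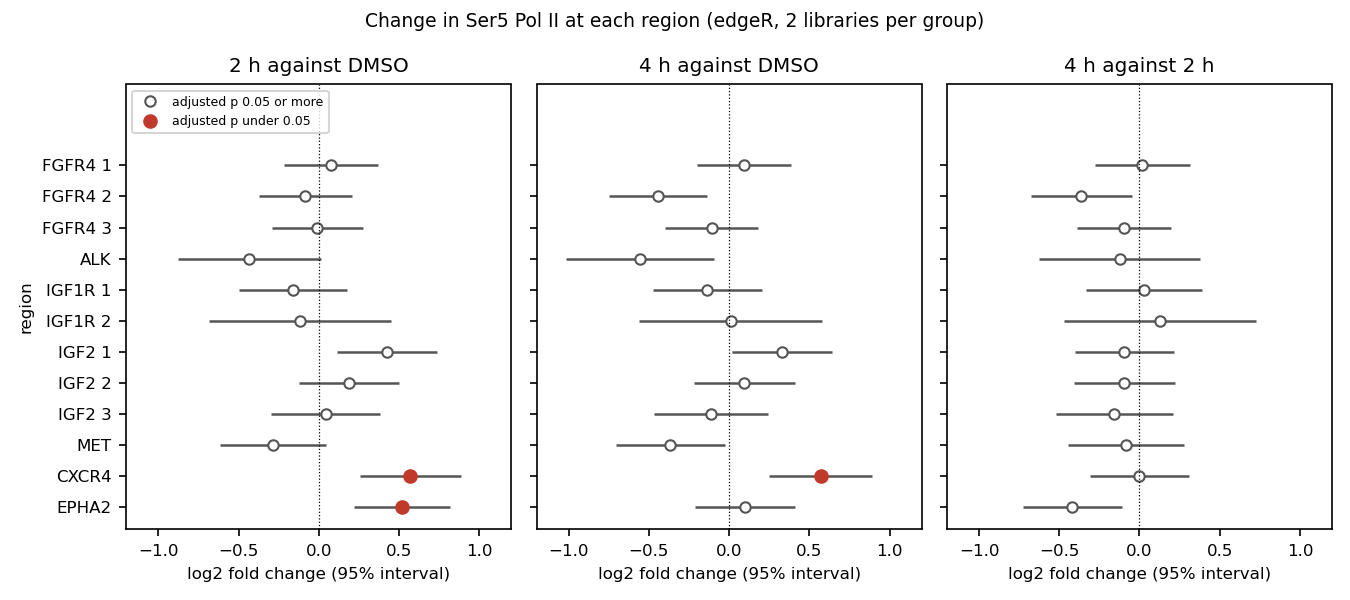
Log2 fold change (horizontal axes) with its 95% interval at each member region for 2 h against DMSO, 4 h against DMSO and 4 h against 2 h; filled red points have an edgeR adjusted p under 0.05. CXCR4 is filled at 2 h and 4 h, EPHA2 at 2 h, and 0 points are filled in 4 h against 2 h.

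At CXCR4, the chemokine receptor, the region at chr2:136875298-136875698 begins 1102 bases inside the upper end of the interval, the end where this minus-strand gene starts. Library A and then library B had 56.2 and 62.3 CPM in DMSO, 91.5 and 83.6 at 2 h, and 86.3 and 89.5 at 4 h. All 4 treated libraries were above both DMSO libraries, and the 2 h and 4 h libraries overlapped. The region rose 1.49-fold at 2 h (log2 fold change 0.57, SE 0.16, edgeR adjusted p = 0.0310) and 1.49-fold at 4 h (0.57, SE 0.16, adjusted p = 0.0436). Against 2 h, the 4 h value differed by a log2 fold change of 0.00, with a 95% interval from -0.31 to 0.31. In the order of levels CXCR4 stood at place 10 of the 12 regions in DMSO, where its libraries overlapped those of place 9. It stood at place 7 at 2 h and place 6 at 4 h, with nearly the same mean, 87.5 and 87.9 CPM. Between these times FGFR4 region 2 went from a mean of 106 to 83.0 CPM and so to a place below CXCR4.

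The CXCR4 calls lay near the threshold. At 2 h the call ended with total count scaling (log2 fold change 0.51, edgeR adjusted p = 0.0803) and without DMSO library A (0.49, 0.239), 2 h library A (0.50, 0.298) or 2 h library B (0.64, 0.0724), and over its alternatives the adjusted p ran from 0.00438 to 0.298, while DESeq2 gave none. At 4 h it ended with total count scaling (0.52, adjusted p = 0.10), with DESeq2 (0.58, adjusted p = 0.564), with only regions of at least 50 mean counts (0.56, adjusted p = 0.0515), with the 3 highest regions' share in the fit (0.54, adjusted p = 0.148), and without DMSO library A (0.49, 0.285), 4 h library A (0.60, 0.126) or 4 h library B (0.56, 0.162), over a range from 0.00664 to 0.564. Every alternative kept the fold change positive at both times, with values from 0.49 to 0.65.

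At EPHA2, the ephrin receptor, the region at chr1:16482287-16482687 lies 1013 bases inside the upper end of the interval, where this minus-strand gene starts. It had 103 and 130 CPM in DMSO, 182 and 150 at 2 h, and 134 and 111 at 4 h. Both 2 h libraries were above both DMSO libraries, and the 4 h libraries overlapped DMSO. The region rose 1.43-fold at 2 h (log2 fold change 0.52, SE 0.15, edgeR adjusted p = 0.0436), and at 4 h its log2 fold change was 0.10 (SE 0.16, adjusted p = 0.863). The direct comparison of 4 h with 2 h gave -0.42 (SE 0.15, adjusted p = 0.998), so the difference between the times did not pass the test. The 2 h call ended with total count scaling (0.46, adjusted p = 0.110), with DESeq2 (0.51, 0.367), with only regions of at least 50 mean counts (0.50, 0.0517), without DMSO library A (0.35, 0.374) and without 2 h library A (0.37, 0.485). Its adjusted p ran from 0.000679 to 0.485 over the alternatives.

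A further region stood just outside the EPHA2 interval, 0.274 kb beyond the lower end, where the gene ends. At chr1:16449126-16449526 it had 74.5 and 73.2 CPM in DMSO, 98.5 and 93.5 at 2 h, and 75.6 and 84.2 at 4 h. Its libraries were thus placed like those of the EPHA2 region at 2 h. Its log2 fold change was 0.38 at 2 h (SE 0.15, edgeR adjusted p = 0.192) and 0.10 at 4 h (SE 0.16, adjusted p = 0.867), and neither passed. In RefSeq EPHA2 overlaps EPHA2-AS1, and the table gives no strand, so signal from the antisense gene could not be told apart from that of EPHA2.

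FGFR4, the receptor kinase best known as a fusion target, kept its Ser5 signal near the DMSO level at 2 of its 3 regions. Region 1 at chr5:176514349-176514749, 1549 bases into the interval on the side where the gene starts, had 118 and 141 CPM in DMSO, 142 and 130 at 2 h, and 144 and 130 at 4 h. Its libraries overlapped between all groups. The log2 fold change was 0.08 at 2 h, with a 95% interval from -0.22 to 0.37, and 0.09 at 4 h, from -0.20 to 0.39 (edgeR adjusted p = 0.884 and 0.860). On the linear scale the 4 h interval runs from 0.870 to 1.31 times the DMSO level.

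FGFR4 region 3 at chr5:176525583-176525983, 217 bases inside the other end of the interval, had 187 and 196 CPM in DMSO, 195 and 186 at 2 h, and 184 and 170 at 4 h. It was the highest of the 3 in every library, and both 4 h libraries lay below both DMSO libraries by a small margin. Its log2 fold change was -0.01 at 2 h (95% interval -0.29 to 0.28) and -0.11 at 4 h (-0.40 to 0.18), with edgeR adjusted p = 0.987 and 0.829. A still higher region lay 1.70 kb beyond this end, at chr5:176527901-176528301, with a mean of 291 CPM over the 6 libraries and log2 fold changes of -0.03 and -0.14 (adjusted p = 0.963 and 0.763).

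FGFR4 region 2, at chr5:176516958-176517358 and 2209 bases beyond region 1, had 109 and 118 CPM in DMSO, 115 and 98.1 at 2 h, and 81.9 and 84.2 at 4 h. Both 4 h libraries were below the other 4. The log2 fold change was -0.08 at 2 h (SE 0.14, edgeR adjusted p = 0.866) and -0.45 at 4 h (SE 0.15, adjusted p = 0.133), with a 95% interval at 4 h from -0.75 to -0.14 before correction for the number of regions. Neither passed, and the direct comparison of 4 h with 2 h, -0.36 (SE 0.16, adjusted p = 0.998), did not pass either. With the column letter as a replicate block, the 4 h value was called (-0.45, edgeR adjusted p = 0.0301) and the 2 h value was not (-0.08, adjusted p = 0.804). That block called 743 of all regions at 4 h, against 243 without it. Summed over its 3 regions, FGFR4 had 435 ± 28.9 CPM in DMSO, 433 ± 26.0 at 2 h and 397 ± 17.7 at 4 h (SD, n = 2 each).

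Within FGFR4 the split of reads among the 3 regions does not depend on how libraries are scaled. Region 2 held 26.2% and 25.9% of the 3-region count in DMSO, 25.4% and 23.7% at 2 h, and 20.0% and 21.9% at 4 h. An exact Clopper-Pearson 95% interval was 23.1% to 29.5% in DMSO library A, of 767 counts, and 17.0% to 23.3% in 4 h library A, of 650 counts. In library B it was 22.6% to 29.4% in DMSO, of 665 counts, and 17.7% to 26.5% at 4 h, of 361 counts. The DMSO and 4 h intervals overlap for both letters, and all cover counting error only. Region 1 held 28.6% and 31.0% in DMSO, and 35.1% and 33.8% at 4 h. Region 3 stayed between 43.2% and 45.2% in all 6 libraries. The order of these shares was not tested, since 2 libraries against 2 cannot give an exact permutation p below 0.333.

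**Figure D3:**
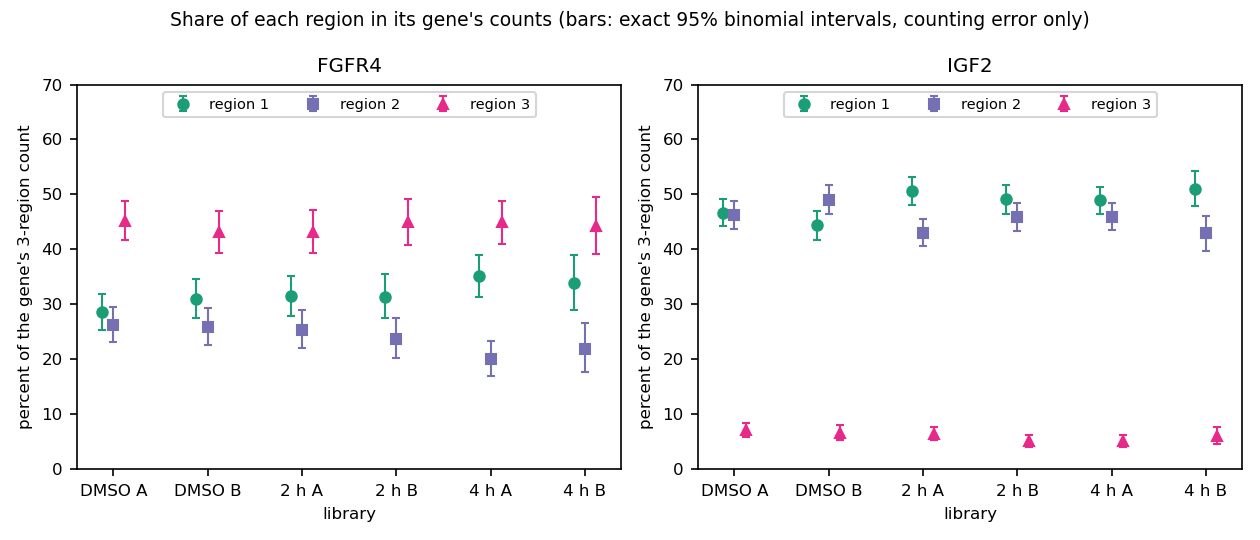
Percent of a gene's 3-region count (vertical axis) held by each region of FGFR4 and IGF2 in each library, with exact 95% binomial intervals that cover counting error only. FGFR4 region 2 goes from 26.2% and 25.9% in DMSO to 20.0% and 21.9% at 4 h, and IGF2 region 3 holds at most 7.06%.

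ALK, a receptor kinase that is also altered in other tumours, had a single region at chr2:30143756-30144156, 1344 bases inside the upper end of a long interval and on the side where the gene starts. It had 39.4 and 52.0 CPM in DMSO, 34.2 and 32.7 at 2 h, and 33.4 and 26.6 at 4 h. All 4 treated libraries were below both DMSO libraries, a placing whose share over all regions was not counted. The counts behind these values were small, 73 and 76 in DMSO, 49 and 43 at 2 h, and 53 and 25 at 4 h. Its log2 fold change was -0.43 at 2 h (SE 0.22, edgeR adjusted p = 0.367) and -0.56 at 4 h (SE 0.23, adjusted p = 0.256), the most negative of the 12 members at both times. Among all regions these values stood at percentiles 4.23 and 1.72. Neither passed, and 0 alternatives called ALK at either time, over ranges of -0.63 to -0.23 at 2 h and -0.76 to -0.35 at 4 h.

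MET, the receptor for hepatocyte growth factor, had 1 region at chr7:116312090-116312490, 690 bases inside the end where the gene starts. It had 70.7 and 71.2 CPM in DMSO, 54.5 and 62.3 at 2 h, and 55.4 and 54.3 at 4 h. As at ALK, all 4 treated libraries were below both DMSO libraries, a placing not counted over all regions. The log2 fold change was -0.28 at 2 h (SE 0.16, edgeR adjusted p = 0.446) and -0.37 at 4 h (SE 0.17, adjusted p = 0.330), and neither passed. The 95% interval at 4 h, before correction, ran from -0.71 to -0.03, or 0.613 to 0.982 times the DMSO level. No alternative called it.

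IGF1R, the receptor that binds IGF1 and IGF2, had region 1 at chr15:99190848-99191248, across the lower end of the interval where the gene starts, and region 2 at chr15:99434493-99434893, 243493 bases into the interval. Region 1 had 79.9 and 67.7 CPM in DMSO, 56.6 and 76.8 at 2 h, and 73.7 and 58.6 at 4 h. Region 2 had 24.8 and 32.8 CPM in DMSO, 18.2 and 35.0 at 2 h, and 25.8 and 33.0 at 4 h. Libraries of all groups overlapped at both regions, and at region 2 the 2 h libraries were farther apart than the group means. The log2 fold changes of region 1 were -0.16 and -0.14 at 2 h and 4 h, with 95% intervals from -0.50 to 0.17 and from -0.48 to 0.21. Those of region 2 were -0.12 and 0.01, with wider intervals from -0.68 to 0.45 and from -0.56 to 0.58. Changes of either direction within these ranges are not excluded at this depth. In 6 of 6 libraries region 1 held most of the 2-region count, from 64.0% to 76.3%. Region 1 crosses the edge of the interval and is the 1 region lost where a member must lie wholly inside it, which leaves 11.

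IGF2, the ligand, differed most from DMSO at region 1, which lies away from the side where the gene starts. This gene is read from the minus strand, so the upper end is that side, and its transcripts use several promoters. Region 1 at chr11:2149378-2149778, 78 bases inside the lower end, had 393 and 421 CPM in DMSO, 549 and 542 at 2 h, and 507 and 516 at 4 h. All 4 treated libraries were above both DMSO libraries, a placing whose share over all regions was not counted. The log2 fold change was 0.42 at 2 h (SE 0.15, edgeR adjusted p = 0.145) and 0.33 at 4 h (SE 0.15, adjusted p = 0.340), and neither passed. A fit with the column letter as a replicate block called the region at both times (0.43, edgeR adjusted p = 0.000619 at 2 h, and 0.33, adjusted p = 0.0196 at 4 h), although the letters are not stated to pair cultures. Of all regions that fit called 859 at 2 h and 743 at 4 h, against 317 and 243 without the block. Under an alternative chosen after seeing the data, in which the fit carried the share of the 3 highest regions, the 2 h value was 0.40 (edgeR adjusted p = 0.00658).

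IGF2 region 2 at chr11:2159311-2159711, in the middle of the interval, had 389 and 465 CPM in DMSO, 467 and 506 at 2 h, and 476 and 434 at 4 h. Both 2 h libraries were above DMSO by a small margin and the 4 h libraries overlapped it. Its log2 fold changes were 0.19 and 0.09 (95% intervals -0.12 to 0.50 and -0.22 to 0.41). Region 3 at chr11:2170538-2170938, 962 bases inside the upper end, was far lower, with 59.4 and 62.3 CPM in DMSO, 69.1 and 55.5 at 2 h, and 52.9 and 60.7 at 4 h. Its libraries overlapped, and its log2 fold changes were 0.04 and -0.12.

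Summed over the 3 regions, IGF2 had 895 ± 75.8 CPM in DMSO, 1094 ± 13.2 at 2 h and 1023 ± 17.9 at 4 h (SD, n = 2 each). Region 1 held 46.7% and 44.4% of the IGF2 count in DMSO, 50.6% and 49.1% at 2 h, and 48.9% and 51.1% at 4 h, so it was the larger of the 2 high regions in 4 of 4 treated libraries and in 1 of 2 DMSO libraries. In RefSeq IGF2 overlaps INS-IGF2, MIR483 and IGF2-AS. Without strand, signal of these genes and of IGF2 could not be told apart. The same limit holds for ALK and IGF1R, which overlap 4 other RefSeq genes each, and for MET, which overlaps 2.

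The comparison of 4 h with 2 h called 0 members and 0 of the 12123 regions in edgeR (0.00%), and DESeq2 and limma-voom called 0 too. Without adjustment 2 members, EPHA2 and FGFR4 region 2, were lower at 4 h in edgeR and limma-voom and 0 in DESeq2. Of all regions, 396 (3.27%) had an unadjusted p under 0.05 in edgeR, 385 in limma-voom and 33 in DESeq2. Of the 12 log2 fold changes 9 were negative and 3 positive, where 49.5% of all regions were positive. The 12 regions come from 7 genes, so they are not independent. Their median was -0.09, against 0.00 for all regions. Both 4 h libraries were below both 2 h libraries at 4 members and above them at 0, where 16.4% and 15.1% of all regions are so placed. With 0 calls, differences between the times may still be present.

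Regions outside the intervals were read the same way. Within 250 kb on either side lay 32 regions, from 3 each around ALK, IGF1R and CXCR4 to 8 around FGFR4, and 0 of them were called in any comparison in edgeR. The lowest adjusted p among them was 0.0684, at chr2:29338045-29338445, 76.2 kb below the ALK interval, with log2 fold changes of -0.52 at 2 h and -0.13 at 4 h. The region nearest to CXCR4, at chr2:136782897-136783297 and 87.6 kb below its interval, had log2 fold changes of -0.50 (SE 0.20) and -0.46 (SE 0.21), opposite in sign to the rise at CXCR4, with adjusted p = 0.212 and 0.312. Around MET, 3 of 4 flanking regions at 2 h and 4 of 4 at 4 h had negative fold changes, the lowest -0.50 and -0.47, and none passed. Of all regions, 48.4% had a positive fold change at 2 h and 48.6% at 4 h. The flanks of FGFR4 ran from -0.24 to 0.19 at 2 h and from -0.33 to 0.31 at 4 h.

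**Figure D4:**
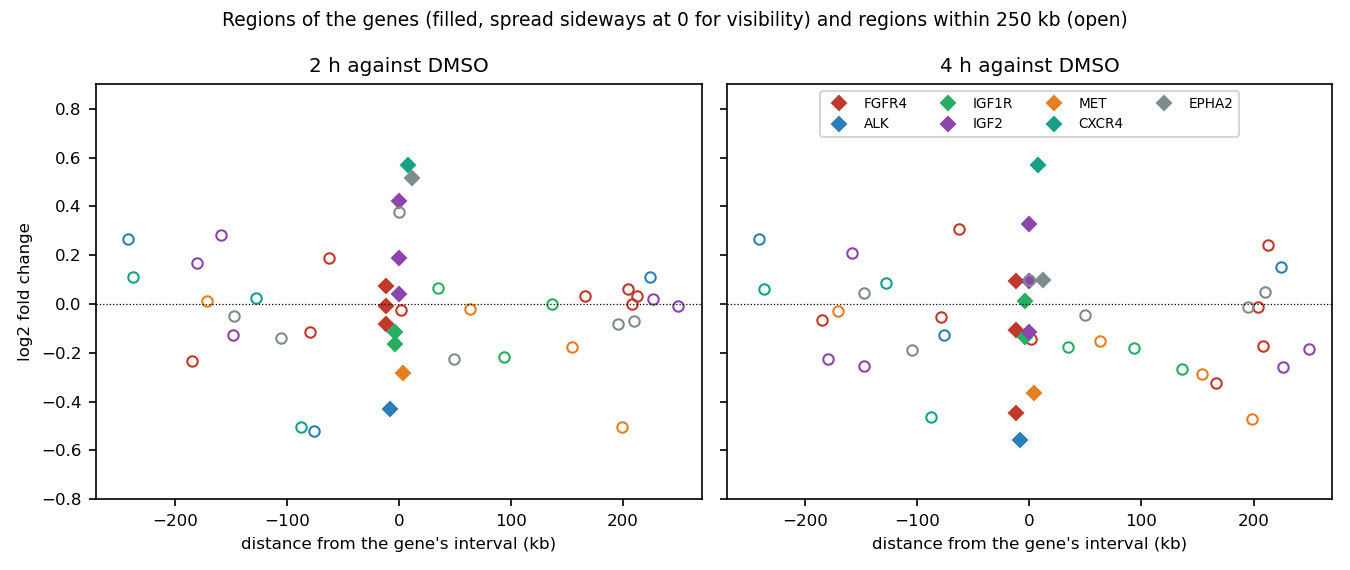
Log2 fold change (vertical axis) against distance from a gene's interval in kb (horizontal axis, 0 for the members) at 2 h and 4 h, with filled diamonds for member regions and open circles for the 32 regions within 250 kb, coloured by gene. The CXCR4 diamond stands at 0.57 in both panels, while the open circles lie between -0.52 and 0.38.

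The regions whose log2 CPM followed each gene most closely over the 6 libraries were found by Pearson's r among 10368 regions with at least 50 mean counts. With 6 libraries many regions reach a high r, so these values describe likeness only. For CXCR4 they were chr1:43829261-43829661 (r = 0.997) and chr17:41393142-41393542 (r = 0.996), and 145 regions had an r above 0.95. For IGF2 region 1 they were chr6:26031978-26032378 (r = 0.999) and chr1:45187147-45187547 (r = 0.998), with 146 above 0.95. The latter went from 133 and 168 CPM in DMSO to 388 and 401 at 2 h and 325 and 331 at 4 h, a larger step than at IGF2 region 1.

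The other genes had fewer close companions, with 36 regions above 0.95 for MET, 29 for ALK, 25 for FGFR4 region 3, 19 for EPHA2 and 17 for IGF1R region 1. The closest to ALK was chr12:7036692-7037092 (r = 0.997), with 62.6 and 81.4 CPM in DMSO, 54.5 and 51.7 at 2 h, and 53.6 and 44.7 at 4 h, followed by chr7:32997050-32997450 (r = 0.986). MET was closest to chr17:66508297-66508697 (r = 0.996) and chr16:89313431-89313831 (r = 0.992), and EPHA2 to chr14:101539688-101540088 (r = 0.991) and chr10:102672664-102673064 (r = 0.984). FGFR4 region 3 was closest to chr1:146714323-146714723 (r = 0.995) and chr16:67062892-67063292 (r = 0.991), and IGF1R region 1 to chr12:121341838-121342238 (r = 0.997) and chr6:89827178-89827578 (r = 0.987). None of these 14 regions lay in another member's interval.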

How the data were processed

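The authors deposited raw counts: a whole number for each of 12123 regions and 6 libraries. Tools listed in the submitters' processing notes are DiffBind, DESeq2, MACS2, Bowtie2 and Trimmomatic 0.32, with hg19 and dm3 as builds. For the role of each, the calling of regions and any removal of duplicates or input, the sources used here give nothing. The columns name a treatment and a letter, and letters were not tied to the labels' replicate numbers. The libraries of each group differed by more than sampling noise (chi-square per degree of freedom 1.50 to 2.33) and were each counted as 1 replicate.

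Here all regions were tested in edgeR 4.0.16 (R 4.3.3) by quasi-likelihood. TMM factors were used, and 1 fit held the 6 libraries. The spread of each region was moderated towards that of all regions, with 43.6 prior degrees of freedom. Adjustment was by Benjamini-Hochberg over 12123 regions, and filterByExpr removed 0. The standard error is the log2 fold change over the square root of F, and 95% intervals are not corrected for the number of regions. Counts on dm3 were not used, so a change of all regions by 1 factor would not be seen. The test was run on simulated counts before use. These had 1 dispersion for all regions and no difference between letters. The run therefore does not show how the test behaves where real libraries depart from that. Members were joined by at least 1 base of overlap, and shares used Python 3.11.15 with scipy 1.17.1. No permutation test was run. Alternatives were other scalings (RLE, total count), DESeq2 1.42.0, limma-voom (limma 3.58.1), robust dispersion, fits of 2 groups, filters, thresholds, a block by letter and leaving out each library. A covariate for the 3 highest regions was chosen after seeing the data.

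The members and lists were chosen with earlier results of these data known. All member regions were named, and for each gene's highest region the 2 most alike regions. Planned counts of other pathway genes and muscle markers were not run, since an annotation of hg19 was not used here.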

Additional observations from a re-analysis of the deposited data

How the results depend on the processing

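No member's called fold change changed sign under the alternatives run. For fold changes that were not called, 39 values under the alternatives had the opposite sign to the main fit. EPHA2 at 4 h, as an example, ran from -0.07 to 0.28. CXCR4 and EPHA2 at 2 h make up the main count of 2, and CXCR4 the count of 1 at 4 h. With total count scaling and with DESeq2, 0 members were called at 2 h and 0 at 4 h. With only regions of at least 50 mean counts 1 was called at 2 h and 0 at 4 h, and with an adjusted p under 0.01 0 and 0. The covariate for the 3 highest regions, chosen after seeing the data, gave 3 at 2 h and 0 at 4 h. Leaving out 1 library gave 0 to 2 members at 2 h and 0 to 1 at 4 h.

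Over all regions, against 317 calls at 2 h and 243 at 4 h, DESeq2 gave 99 and 58, an adjusted p under 0.1 gave 512 and 386, under 0.01 gave 143 and 101, and the covariate gave 499 at 2 h. Leaving out 1 library gave 147 to 445 at 2 h, 120 to 369 at 4 h and 0 to 1 in 4 h against 2 h.

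The A and B libraries deviated together between groups (r of 0.218, 0.278 and 0.157 over regions), but the letters are not stated to pair cultures. A replicate block by letter gave 3 members at 2 h (IGF2 region 1 added, 0.43, edgeR adjusted p = 0.000619) and 3 at 4 h (IGF2 region 1, 0.33, 0.0196, and FGFR4 region 2, -0.45, 0.0301), and 859 and 743 regions in all. DESeq2 gave no adjusted p for 6 members at 2 h and 4 at 4 h. A CPM of the table total moved 2 of 36 group levels by more than their SD, and within 100 kb 10 of the 32 flanking regions remained. With 2 libraries a group and a standard error of at least 0.141, small changes were not detectable.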
